A study of Mus musculus with 6 samples.

Results

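Collagen VI is a heterotrimeric matrix collagen, and the 3 genes described here, Col6a1, Col6a2 and Col6a3, encode the chains of its classical form. They are 3 of the 30071 genes in the deposited table, were chosen by symbol, and all 3 had enough counts to enter the test over 18177 genes. The family was taken up because Col6a3 had been called lower with supernatant in these libraries, so the values with and without supernatant are a description of the members and are not independent evidence. The cells were MC3T3-E1, a mouse pre-osteoblast line. All 6 libraries came from cells on polyetheretherketone (PEEK), an implant polymer, with a nano- and microscale surface structure. In 3 libraries the cells grew on this surface alone, and in 3 they also received supernatant of RAW264.7, a mouse macrophage line. RNA came from bulk cultures of 1 line, in which fewer cells that express a gene and less RNA per cell cannot be told apart. Library totals ran from 74927500 to 82803173 counts.

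In collagen VI, a chain from each of the 3 genes is wound into a short helical monomer inside the cell. Monomers associate laterally before secretion, and outside the cell the assemblies join end to end into beaded microfibrils close to the cell surface. The microfibrils link cells with basement membranes, biglycan, decorin and fibrillar collagens. In humans, mutations in the genes of these chains cause Bethlem myopathy and Ullrich congenital muscular dystrophy, and a carboxy-terminal fragment of the Col6a3 chain circulates as endotrophin. The chains encoded by Col6a4, Col6a5 and Col6a6 resemble that of Col6a3 and are thought to be able to take its place in the trimer.

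In the coordinates of the deposited table, Col6a1 (ENSMUSG00000001119) lies on chromosome 10 from 76544626 to 76562002 and Col6a2 (ENSMUSG00000020241) on the same chromosome from 76431596 to 76459464, both on the minus strand and 85.2 kb apart. Col6a3 (ENSMUSG00000048126) lies on chromosome 1 from 90693645 to 90771693, also on the minus strand. The table names no genome build. Its positions do not match those of the promoter windows below and cannot be combined with them. Its values are for whole genes, with exons, UTRs and transcripts not separated.

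RefSeq promoter windows (build GRCm38.p6, 250 bases before to 50 after a start) were available for all 3 genes and are shown because Col6a1 and Col6a2, which neighbour each other, followed each other across the libraries while Col6a3 did not. The Col6a1 window is chr10:76725995-76726294, the Col6a2 window chr10:76623355-76623654 and the Col6a3 window chr1:90843922-90844221, all on the minus strand and written 5′ to 3′. RefSeq lists a further Col6a2 start 226 bases away, whose window is not printed. Capitals mark matches, on either strand, to GGGCGG (the GC box) and TGANTCA (the AP-1 site), and CCAAT and TATAAA were searched as well.
Col6a1: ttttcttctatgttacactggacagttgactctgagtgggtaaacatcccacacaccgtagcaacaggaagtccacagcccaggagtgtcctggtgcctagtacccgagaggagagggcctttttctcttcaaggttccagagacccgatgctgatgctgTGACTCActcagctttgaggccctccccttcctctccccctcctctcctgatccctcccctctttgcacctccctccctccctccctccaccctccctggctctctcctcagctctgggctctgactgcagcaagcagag
Col6a2: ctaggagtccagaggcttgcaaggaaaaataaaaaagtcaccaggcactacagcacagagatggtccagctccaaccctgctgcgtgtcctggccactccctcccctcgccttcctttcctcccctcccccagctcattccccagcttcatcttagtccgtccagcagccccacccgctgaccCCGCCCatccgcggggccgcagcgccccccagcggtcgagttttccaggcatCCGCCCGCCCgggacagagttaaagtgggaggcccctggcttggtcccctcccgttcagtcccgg
Col6a3: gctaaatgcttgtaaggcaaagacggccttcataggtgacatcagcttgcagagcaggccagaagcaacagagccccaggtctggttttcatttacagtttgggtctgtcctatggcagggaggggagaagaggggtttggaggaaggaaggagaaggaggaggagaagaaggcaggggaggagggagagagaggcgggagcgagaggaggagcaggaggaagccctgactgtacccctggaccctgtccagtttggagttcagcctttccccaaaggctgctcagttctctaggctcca

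The Col6a1 window held 1 match to TGANTCA, which 7.81% of the 32851 RefSeq windows of this length hold, beginning 90 bases before the start. The Col6a2 window held 3 matches to GGGCGG on the opposite strand, 2 of them overlapping by 2 bases, and 35.7% of windows hold this motif. None of these letters was in the Col6a3 window, and neither CCAAT (in 37.4% of windows) nor TATAAA (in 13.6%) was in any of the 3 printed windows. The G and C share was 57.3% for Col6a1, 64.3% for Col6a2 and 56.3% for Col6a3, against a median of 52.7% over all windows. The printed sequences thus shared no searched motif among the 3 genes, and a match is a string of letters, not a measured site.

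The chains were present at very unequal levels. In FPKM (fragments scaled to gene length and library size, as deposited), Col6a1 was at 410.4, 351 and 361 in the PEEK alone replicates 1, 2 and 3, and the supernatant replicates held 373, 191 and 193. Col6a2 was at 110.4, 76.8 and 80.9 FPKM on PEEK alone and at 81.8, 41.5 and 41.8 FPKM with supernatant. Col6a3 was at 1.68, 1.53 and 1.69 FPKM on PEEK alone and at 0.446, 0.361 and 0.534 FPKM with supernatant. For Col6a1 and Col6a2, replicate 1 with supernatant lay within the range of PEEK alone and replicates 2 and 3 with supernatant lay below it. For Col6a3, every library with supernatant was lower than every library on PEEK alone.

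**Figure D1:**
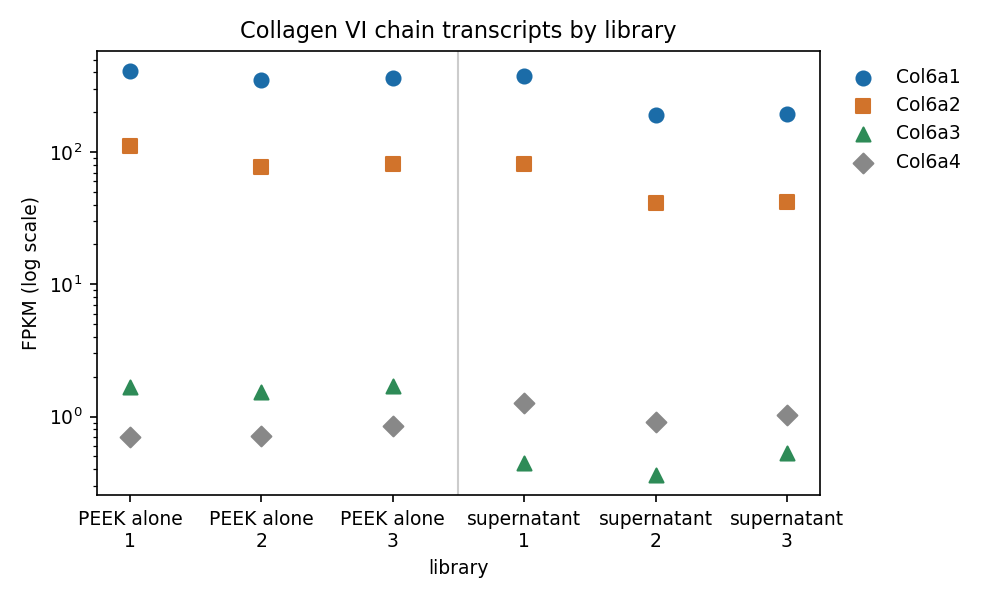
FPKM (log scale) of Col6a1, Col6a2, Col6a3 and Col6a4 in each of the 6 libraries, 1 point per library. Col6a1 lies between 191 and 410.4 FPKM and Col6a3 between 0.361 and 1.69 FPKM, and Col6a4 lies below Col6a3 on PEEK alone and above it with supernatant.

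As means, Col6a1 was at 374 ± 31.7 FPKM on PEEK alone and 253 ± 104 FPKM with supernatant (SD, n = 3 each). Col6a2 was at 89.4 ± 18.4 and 55.0 ± 23.2 FPKM, and Col6a3 at 1.64 ± 0.0887 and 0.447 ± 0.0866 FPKM. The order Col6a1 above Col6a2 above Col6a3 held in each library. Among the 30071 genes of the table, Col6a1 ranked between 53 and 65 in FPKM in the 3 libraries on PEEK alone and supernatant library 1, but 145 and 151 in supernatant libraries 2 and 3. Col6a3 was above 63.0 to 64.1% of genes on PEEK alone and above 52.7 to 56.1% with supernatant, so its rank lay in the middle of the table while that of Col6a1 lay near its top.

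Among the 39 collagen genes of the table, Col6a1 was the second in FPKM in every library, after Col1a2, which encodes a chain of the fibrillar collagen of bone. Col1a2 averaged 511 FPKM over the 6 libraries and Col6a1 313 FPKM. Col6a1 carried 22.6 to 29.7% of all collagen FPKM, Col6a2 4.90 to 7.80% and Col6a3 0.0316 to 0.139%. A low partner chain was also seen in collagen I, where Col1a1 averaged 2.84 FPKM over the 6 libraries. It was not seen in collagen V, where Col5a2 averaged 93.4 FPKM and Col5a1 70.4 FPKM.

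The counts behind these levels were large for the abundant chains and moderate for Col6a3. Col6a1 had 64518 to 142515 counts per library and Col6a2 26605 to 72899. Col6a3 was counted 1601, 1567 and 1658 times in the PEEK alone libraries but 425, 335 and 533 times in those that received supernatant. Exact Poisson 95% intervals had a half-width of 0.520 to 0.772% of the count for Col6a1 and of 4.84 to 10.9% for Col6a3, and cover counting error only. The lowest Col6a3 count on PEEK alone had an interval from 1490 to 1647, and the highest with supernatant one from 489 to 580. Low Col6a3 values with supernatant had brought the family here, so these intervals are no test of the groups.

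Set against each other inside a library, Col6a1 and Col6a2 kept a nearly constant ratio. Col6a1 was 3.72, 4.57 and 4.47 times Col6a2 in FPKM in the PEEK alone libraries 1, 2 and 3 and 4.56, 4.61 and 4.62 times in the supernatant libraries. The highest of these ratios was 1.24 times the lowest, whereas Col6a1 itself differed 2.11-fold and Col6a2 2.62-fold between their highest and lowest libraries (CPM, counts scaled to TMM-adjusted library sizes). Replicate 1 on PEEK alone stood apart with the lowest ratio. It held the most of both chains, and exceeded the PEEK alone mean of log2 CPM by 0.31 for Col6a2 and 0.12 for Col6a1.

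Relative to Col6a3, both abundant chains were in large excess, and the excess was wider with supernatant. Col6a1 was 244, 229 and 214 times Col6a3 in FPKM on PEEK alone and 837, 531 and 362 times with supernatant. Col6a2 was 65.6, 50.1 and 47.8 times Col6a3 on PEEK alone and 184, 115 and 78.3 times with supernatant. All 3 libraries with supernatant had higher ratios to Col6a3 than all 3 without. The widest was in replicate 1, in which Col6a1 and Col6a2 were at the level of PEEK alone while Col6a3 was not. As a share of the FPKM of the 3 chains, Col6a3 made up 0.322, 0.357 and 0.381% on PEEK alone, and its share was 0.0979, 0.155 and 0.227% in the supernatant libraries.

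Exact paired permutation tests over the 6 libraries, two-sided, were planned for the 3 pairs of chains. The low Col6a3 values with supernatant had entered the choice of the family, so both ratios to Col6a3 are given as a description, without their p-values. The mean log2 ratio was 2.14 (SD 0.12, n = 6) for Col6a1 to Col6a2, 8.46 (SD 0.79) for Col6a1 to Col6a3 and 6.32 (SD 0.75) for Col6a2 to Col6a3. For Col6a1 to Col6a2 the exact permutation test gave p = 0.031 (Benjamini-Hochberg adjusted p = 0.031 over the 3 pairs), the smallest that 6 libraries allow. That adjustment took in both ratios to Col6a3. Any ratio with the same direction in all 6 libraries gives this p, so it says nothing about the size of the ratio. Each of the 3 ratios had the same direction in 6 of 6 libraries. The test pools both groups, and within a group 3 libraries allow no p below 0.25.

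The size of the Col6a1 to Col6a2 ratio depended on the gene length behind FPKM. Counts, FPKM and the total counts of the libraries implied lengths of 4498 to 4523 bases for Col6a1, 8550 to 8598 for Col6a2 and 12338 to 12401 for Col6a3. In GENCODE M21, the exons of all transcripts together cover 4380, 8326 and 11963 bases, while the transcript with the longest coding sequence has 4100, 3949 and 10106 bases. The implied length of Col6a2 was thus more than the length of its longest coding transcript by a wide margin, and that of Col6a1 was not. Per kilobase of that transcript, Col6a1 was 1.88, 2.32 and 2.26 times Col6a2 on PEEK alone and 2.31, 2.34 and 2.34 times with supernatant. On the same scale Col6a1 was 192 to 219 times Col6a3 on PEEK alone and 325 to 753 times with supernatant, so the low level of Col6a3 did not turn on the choice of length.

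**Figure D2:**
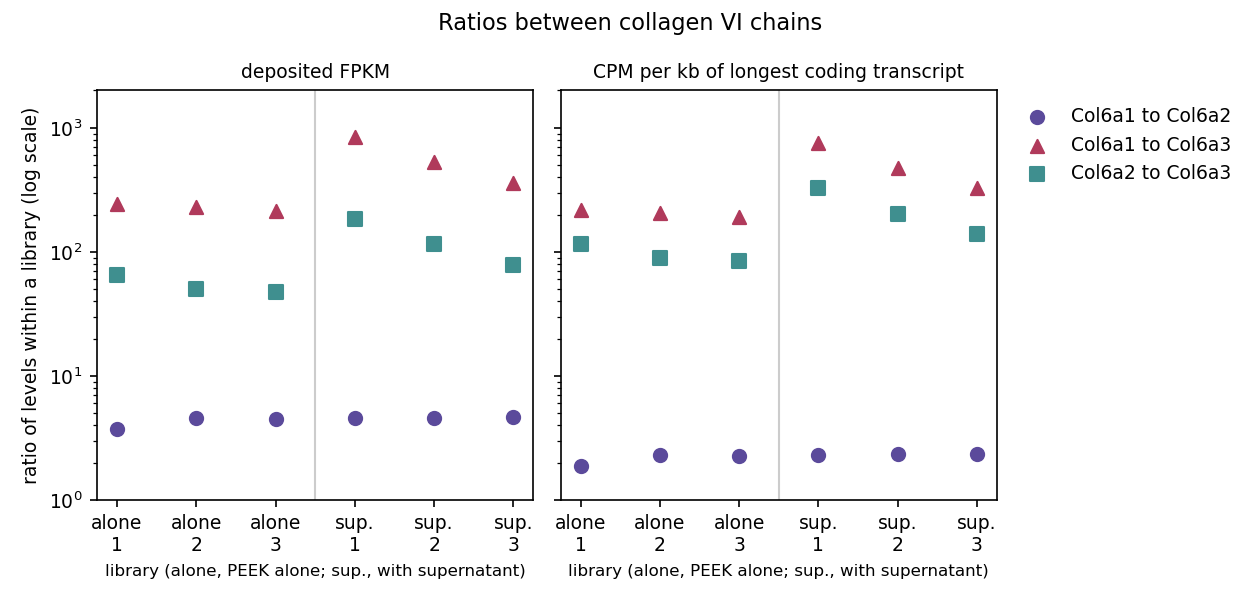
Ratios between chains within each library (log scale), 1 point per library, from the deposited FPKM (left) and from CPM per kilobase of the longest coding transcript (right). The Col6a1 to Col6a2 ratio lies between 3.72 and 4.62 on the left and between 1.88 and 2.34 on the right, and the ratios to Col6a3 are higher in the 3 libraries with supernatant on both sides.

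The supernatant contrast asks how pre-osteoblast transcripts differ in the presence of a macrophage product. On the log2 CPM scale, Col6a3 deviated from the mean of PEEK alone by −1.91, −2.16 and −1.61 in the supernatant replicates 1, 2 and 3. Col6a1 deviated by −0.04, −0.96 and −0.96 and Col6a2 by −0.15, −1.08 and −1.08 in the same libraries. On PEEK alone the deviations of Col6a3 were within −0.09 to 0.06, those of Col6a1 within −0.08 to 0.12 and those of Col6a2 within −0.19 to 0.31. Replicates 2 and 3 with supernatant were lower in all 3 chains, and replicate 1 was lower in Col6a3 but within the spread of PEEK alone in the other chains.

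**Figure D3:**
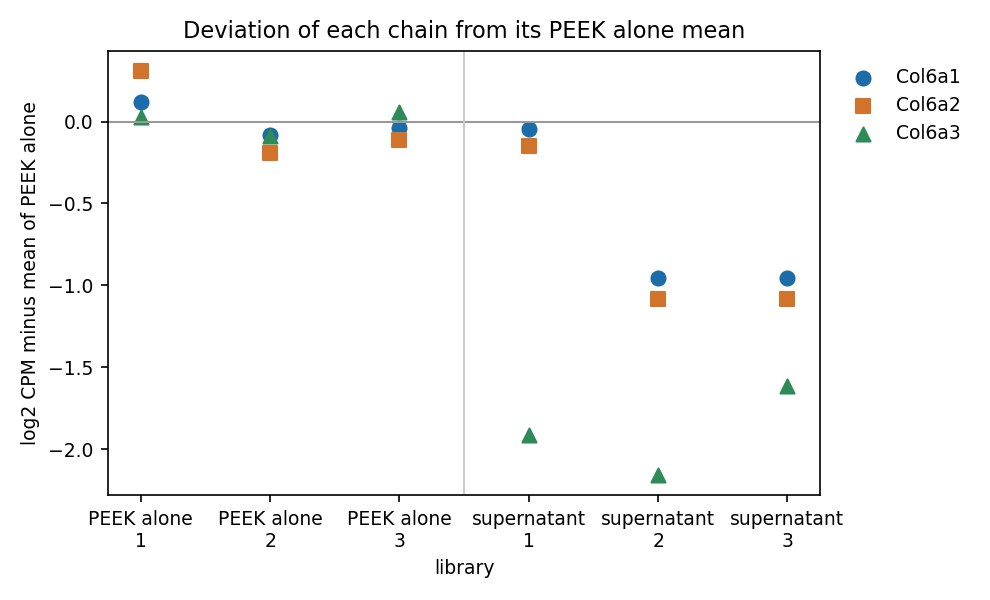
Log2 CPM of each chain minus its mean on PEEK alone, 1 point per library, with a line at 0. With supernatant, Col6a3 lies at −1.91, −2.16 and −1.61, while Col6a1 and Col6a2 lie near 0 in replicate 1 and between −0.96 and −1.08 in replicates 2 and 3.

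Fitted over all genes with edgeR, the log2 fold change with supernatant was −1.88 (SE 0.16) for Col6a3, −0.59 (SE 0.23) for Col6a1 and −0.72 (SE 0.26) for Col6a2. Of the 3 chains, 1 was called lower at a Benjamini-Hochberg adjusted p under 0.05 by edgeR's quasi-likelihood test, where 0.0055% of tested genes were called lower, and that call was what brought the family here. Col6a1 and Col6a2 did not pass (edgeR adjusted p = 0.516 and 0.484). DESeq2, which called 0.607% of genes lower, gave the same count of chains. Col6a3 was not called by edgeR without the low-count filter or with the replicate block (adjusted p = 0.0923 and 0.170), nor by limma in any of its 3 settings (adjusted p = 0.0530 to 0.339). Of the 18177 tested genes, 46 had a log2 fold change at or below that of Col6a3, 684 at or below that of Col6a2 and 1022 at or below that of Col6a1, each chain included. The groups did not overlap for Col6a3, as for 6.55% of tested genes in the lower direction (FPKM), and overlapped for Col6a1 and Col6a2.

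The values of Col6a1 and Col6a2 turned on replicate 1 with supernatant. Without it, the log2 fold change was −0.95 (SE 0.08, edgeR adjusted p = 0.0115) for Col6a1 and −1.09 (SE 0.15, edgeR adjusted p = 0.0348) for Col6a2, and all 3 chains were called, where 0.351% of genes were called lower. With any of the other 5 libraries left out neither was called, and their log2 fold changes ran from −0.63 to −0.43 and from −0.81 to −0.54. Col6a3 was called with any library with supernatant left out (edgeR adjusted p = 0.0158 to 0.0354). It was not called with any library on PEEK alone left out (edgeR adjusted p = 0.0590 to 0.197). Its log2 fold change stayed between −2.04 and −1.76. These fits reuse the libraries in which Col6a3 was first called, so its values in them are not independent evidence.

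**Figure D4:**
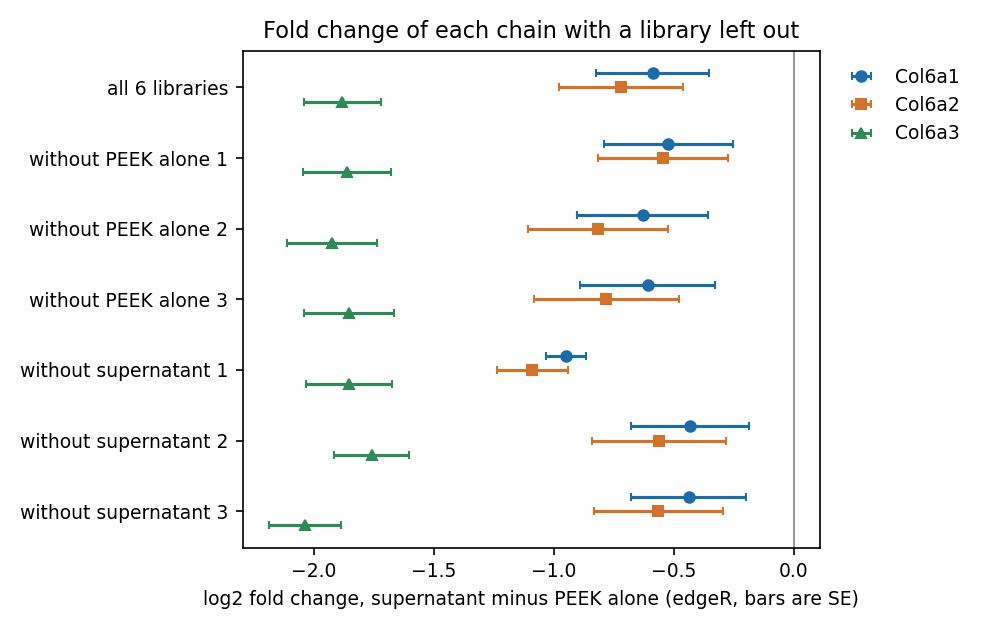
Log2 fold change with supernatant (edgeR, bars are SE) of the 3 chains with all 6 libraries and with each left out. Col6a3 stays between −2.04 and −1.76, and Col6a1 and Col6a2 are at −0.95 and −1.09 without replicate 1 with supernatant.

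Replicate 1 with supernatant also stood apart in some osteoblast markers and not in others. Alpl, an alkaline phosphatase needed for mineralization, reached 20.6 FPKM there and at 3.93 to 7.08 FPKM in the other 5 libraries, while Spp1, which encodes osteopontin, was at 114 FPKM there and at 193 to 240.4 FPKM elsewhere. The transcription factor gene Twist1 was at 16.8 FPKM there and at 14.4 to 16.8 FPKM elsewhere. Col1a2 was at 648 FPKM there, near the 623 FPKM of replicate 1 on PEEK alone, and at 350.0 and 394 FPKM in the other supernatant libraries. Whether this library's state has a part in the Col6a1 and Col6a2 values was not tested. Of 12 markers of osteoblasts and mesenchyme, 10 averaged at least 1 FPKM, and the late osteoblast markers Bglap and Ibsp did not (0.0654 and 0.499 FPKM). The summed FPKM of the 12 was 1159 to 1314 on PEEK alone and 937 to 1295 with supernatant. Macrophage markers, 4 of 7 of which were in the table, summed to 1.63 to 3.17 FPKM on PEEK alone and 1.47 to 2.35 FPKM with supernatant. Of these, Cd68 alone averaged over 1 FPKM, and the leukocyte gene Ptprc was listed at 0 in 5 of 6 libraries. Markers of endothelium, epithelium and skeletal muscle summed to at most 0.310 FPKM in any library and those of adipocytes to at most 0.769 FPKM. In the chondrocyte list Sox9 averaged 26.9 FPKM and Col2a1 0.0474 FPKM.

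The 3 collagen VI chains that resemble that of Col6a3 were low or not analysed. Col6a4 was at 0.695, 0.710 and 0.844 FPKM on PEEK alone and at 1.27, 0.909 and 1.03 FPKM with supernatant. All 3 libraries with supernatant lay above all 3 without, as for 8.71% of tested genes in the higher direction, with a log2 fold change of 0.50 (SE 0.17, edgeR adjusted p = 0.451). Col6a3 was above Col6a4 in all 3 libraries on PEEK alone and below it in all 3 with supernatant. No count of Col6a5 was recorded on PEEK alone, and 0, 28 and 18 counts were recorded in replicates 1, 2 and 3 that received supernatant, too few to be tested. Col6a6 was not analysed here.

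Genes that act with collagen VI were described in 5 lists of 43 genes, of which 41 had values and 37 were tested. None was called by edgeR in either direction, where 0.0165% of tested genes were called, 8 had an unadjusted p under 0.05 (21.6%, against 8.95% of all tested genes), and DESeq2 called 3 lower, where it called 0.607% of genes lower. The median log2 fold change over the 37 was −0.06, against −0.01 over all tested genes. The groups did not overlap in FPKM for 5 of the 37 in the lower direction and 3 in the higher. Of all tested genes, 6.55% and 8.71% did so. The 3 with a DESeq2 call, named after their values were seen, were Cspg4, Matn2 and Plod2.

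Receptors were led by Itgb1, the beta chain that the collagen-binding integrins share, at 182 to 187 FPKM on PEEK alone and 173 to 186 FPKM with supernatant. Its alpha partners were low, with Itga1, Itga2, Itga10 and Itga11 each averaging under 1 FPKM. Antxr1 and Antxr2, anthrax toxin receptors that bind collagen VI, averaged 16.0 and 7.96 FPKM, with log2 fold changes of −0.29 (SE 0.17) and −0.14 (SE 0.09). Cspg4, the NG2 proteoglycan that binds collagen VI at the cell surface, was at 2.56, 1.22 and 1.15 FPKM on PEEK alone and at 0.638, 0.617 and 0.925 FPKM with supernatant. The groups did not overlap for Cspg4, Antxr2 and Itga10, all lower with supernatant, as for 6.55% of tested genes. For Cspg4 the log2 fold change was −1.18 (SE 0.32, edgeR adjusted p = 0.322, DESeq2 adjusted p = 0.00373). For Itga10 it was −0.80 (SE 0.33, edgeR adjusted p = 0.531). The median over the 8 receptor genes was −0.15.

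Of the matrix partners, Bgn, which encodes biglycan, was the most abundant at 503 to 627 FPKM on PEEK alone and 513 to 616 FPKM with supernatant. The fibronectin gene Fn1 was at 217, 274 and 234 FPKM on PEEK alone and at 341, 193 and 203 FPKM with supernatant, so that replicate 1 with supernatant was again its own group's highest library. Hspg2, the basement membrane proteoglycan perlecan, averaged 49.0 FPKM, with a log2 fold change of 0.03 (SE 0.11). Dcn, which encodes decorin, and the basement membrane chains Col4a1 and Col4a2 averaged under 1 FPKM. Dcn was at 0.0429, 0.136 and 0.114 FPKM on PEEK alone and at 0.140, 0.318 and 0.253 FPKM in the supernatant libraries, without overlap, with a log2 fold change of 1.26 (SE 0.48, edgeR adjusted p = 0.502). Col4a2 had −2.73 (SE 1.12, edgeR adjusted p = 0.531) at 0 to 0.151 FPKM. Matn2, an adaptor of the matrilin family, was at 41.6, 47.9 and 49.4 FPKM on PEEK alone and at 40.3, 29.3 and 27.7 FPKM with supernatant, with no overlap and a log2 fold change of −0.53 (SE 0.14, edgeR adjusted p = 0.314, DESeq2 adjusted p = 0.0216). Of 12 listed partners 9 were tested, with a median of 0.00.

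Genes that modify, fold and export collagens had small differences between the groups, with a median log2 fold change of −0.05 over 14 tested genes and a range of −0.43 to 0.15. P4hb, the shared subunit of prolyl 4-hydroxylase, averaged 430.0 FPKM and had a log2 fold change of −0.11 (SE 0.08). The collagen chaperone gene Serpinh1 averaged 239.7 FPKM (−0.01, SE 0.08), and Crtap, part of the prolyl 3-hydroxylation complex, 55.5 FPKM (0.14, SE 0.17). Plod2, a lysyl hydroxylase, was at 20.4, 21.9 and 21.6 FPKM on PEEK alone and at 19.0, 15.0 and 14.0 FPKM with supernatant. The groups did not overlap, and the log2 fold change was −0.43 (SE 0.11, edgeR adjusted p = 0.308, DESeq2 adjusted p = 0.0455). Without replicate 1 with supernatant, edgeR called Plod2 and Matn2 (adjusted p = 0.0364 and 0.0361), as it did Col6a1 and Col6a2. That fit called 0.351% of genes lower. Among the 5 proteases, Mmp14 averaged 58.0 FPKM, Mmp11, which can cleave the Col6a3 chain, 44.2 FPKM and Mmp2 33.2 FPKM. Mmp11 was at 35.7 to 42.0 FPKM on PEEK alone and at 44.5 to 52.2 FPKM with supernatant, without overlap (log2 fold change 0.30, SE 0.09, edgeR adjusted p = 0.391).

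**Figure D5:**
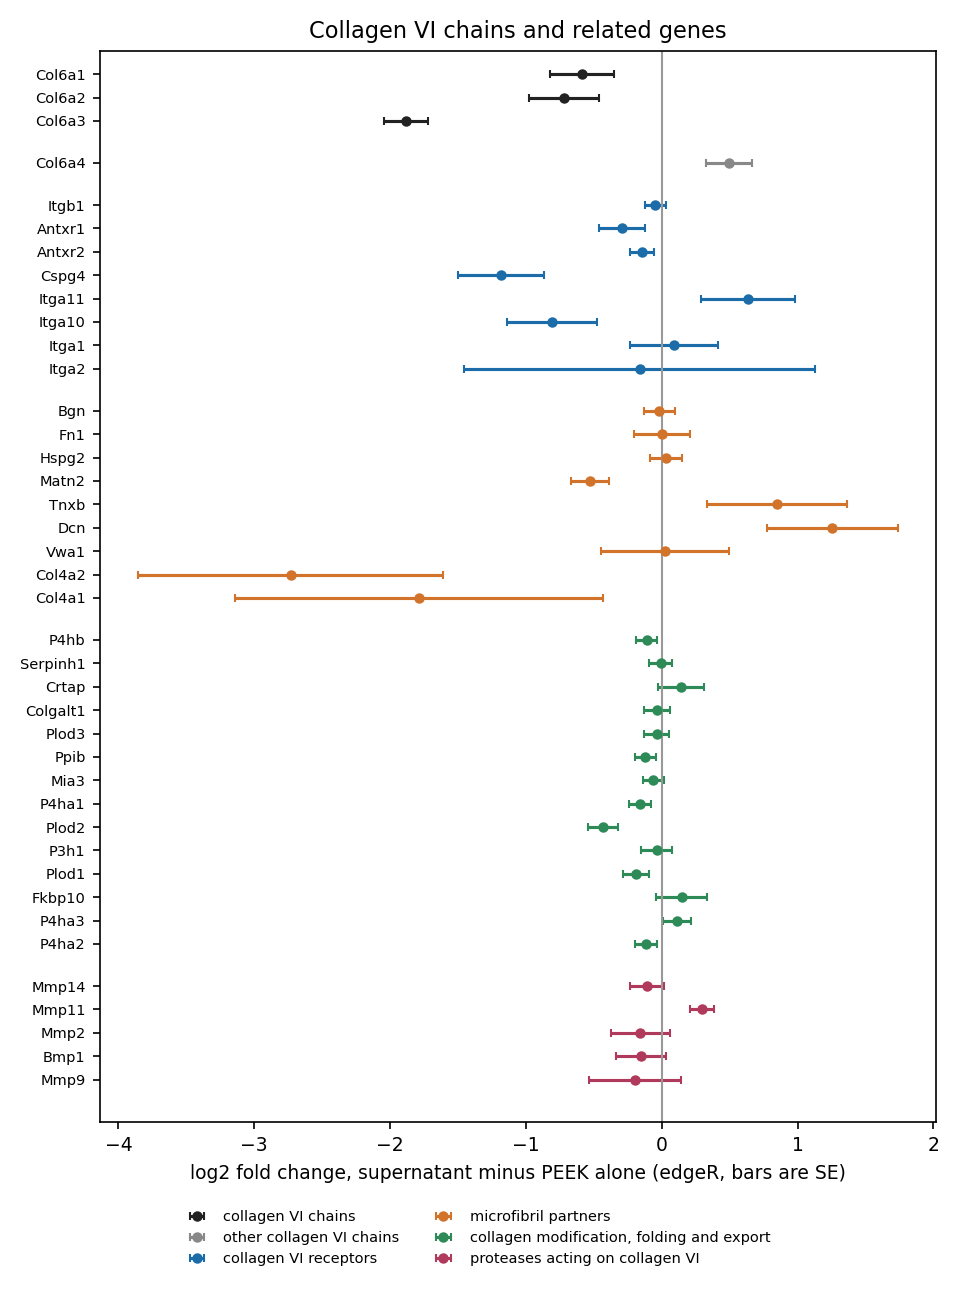
Log2 fold change with supernatant (edgeR, bars are SE) of the 3 chains and of the 37 tested genes of the lists, ordered by mean FPKM within each list. Col6a3 is at −1.88, modification genes lie between −0.43 and 0.15, and the widest bars belong to genes that averaged under 1 FPKM.

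The genes whose profile over the 6 libraries was nearest to that of each chain were found by the root mean square difference of log2 CPM after each gene's own mean was subtracted, among 10268 other genes averaging at least 1 FPKM. For Col6a2 the nearest gene was Col6a1, at a difference of 0.11 log2 units, followed by Dnm3os (0.12) and Them7 (0.14). For Col6a1 the nearest were Sec16b, which acts at endoplasmic reticulum exit sites (0.06), Them7 (0.07) and then Col6a2 (0.11). For Col6a3 the nearest were Ppih, a cyclophilin of the spliceosome (0.39), the lipid droplet gene Plin4 (0.43), Evi2a (0.46), the periplakin gene Ppl (0.49) and the glutathione transferase gene Mgst3 (0.51). Col6a2 stood at place 55 and Col6a1 at place 84 in that order, at differences of 0.68 and 0.71. The likeness is a description of 6 libraries, which share the group difference. Dnm3os and Evi2a lie inside other genes on the opposite strand, and the sources used here do not say whether counting was by strand.

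None of the 12 tested genes nearest to the chains by the deposited coordinates was called by edgeR, where 0.0165% of tested genes were called. Gm48276, a noncoding gene 0.415 kb before the start of Col6a1 on the same strand, was at 3.34 to 4.29 FPKM on PEEK alone and 2.52 to 3.80 FPKM with supernatant, with a log2 fold change of −0.28 (SE 0.18). The next gene, Pcbp3, which encodes an RNA-binding protein, was at 10.7 to 10.9 FPKM on PEEK alone and at 16.3, 12.7 and 14.4 FPKM with supernatant (log2 fold change 0.41 with an SE of 0.10, edgeR adjusted p = 0.287, DESeq2 adjusted p = 0.0344). DESeq2 called 168 of 20744 genes higher. Slc19a1, a folate carrier gene, followed at 0.18 (SE 0.10). On the Col6a2 side, 4930483K19Rik, the sterol synthesis gene Lss and Mcm3ap had log2 fold changes of 0.03, −0.13 and 0.12. Around Col6a3, the signalosome gene Cops8 (0.01, SE 0.07), Gm35048 (0.62, SE 0.31) and the chemokine receptor gene Ackr3 (0.45, SE 0.22) lay on the side of lower coordinates, and Lrrfip1 (0.09, SE 0.20), Ube2f (−0.19, SE 0.11) and Gm7785 (0.14, SE 0.21) on the other. The nearest of them to Col6a3, Cops8, lay 153 kb away. Of other genes in the table, Gm36970 overlapped Col6a3 and had 0 counts in all libraries, and none overlapped Col6a1 or Col6a2.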

How the data were processed

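RNA of MC3T3-E1 cells for 6 libraries was poly(A)-selected, fragmented and sequenced in pairs on a NovaSeq instrument from libraries made with dUTP and molecular identifiers, per the labels' protocols. Per the file headers, the deposited table pairs each gene's raw count with its FPKM in every library. The submitters' processing notes list Cutadapt 1.9 and HISAT2 2.2.1. The sources used here do not give the counter, whether it used strand or identifiers, the annotation or the genome build. Groups follow the treatment label. The titles call 2 of 3 libraries in each group biological replicates, and nothing else says that cultures were separate, so the spread behind each p-value may be technical.

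Counts of all genes were fitted with edgeR 4.0.16 in R 4.3.3 (TMM, filterByExpr with minimum count 10 and minimum total 15, quasi-likelihood test, Benjamini-Hochberg adjusted p under 0.05, group as the only term). The SE of a log2 fold change is its size over the square root of F. Fits were tested on simulated data. Ratios of chains used the deposited FPKM. The members and lists were chosen with earlier results of these data known. Genes were named by a rule: the 3 chains, the 3 most abundant genes of each list and any called, the nearest profiles (prior count 2, genes without a name, pseudogenes and ribosomal genes left out) and the 3 tested genes on each side of a locus. Alternatives were DESeq2 1.42.0, its size factors in edgeR, no low-count filter, limma 3.58.1 on log2(FPKM + 1) or log2(FPKM + 0.1), a replicate block, each library left out, and, chosen after seeing the data, the transcript length.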

Additional observations from a re-analysis of the deposited data

How the results depend on the processing

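Over all genes, 3 were past the threshold in the edgeR fit, and DESeq2 called 294. No gene was called without the low-count filter, with limma without a filter or with the replicate block (edgeR, limma and edgeR), where 1903, 2221 and 1330 genes had an unadjusted p under 0.05. Leaving out a library gave 0 to 199 genes, 199 without replicate 1 with supernatant and 0 without replicate 2 or 3 of PEEK alone, where 1068 and 1020 had an unadjusted p under 0.05. Col6a3 kept its sign in every fit run. It was not called without the low-count filter (log2 fold change −1.88, adjusted p = 0.0923), by limma on log2(FPKM + 1) with and without its filter (−0.87 both, adjusted p = 0.0530 and 0.339) or on log2(FPKM + 0.1) (−1.68, adjusted p = 0.0727), or with the replicate block (−1.90, adjusted p = 0.170), and the cause was not tested. A pseudocount of 1 exceeds the FPKM of Col6a3 with supernatant. The limma filter kept genes with at least 1 FPKM in at least 3 libraries, and Col6a3 passed it only through the libraries on PEEK alone. With a library left out, log2 fold changes ran from −0.95 to −0.43 for Col6a1, from −1.09 to −0.54 for Col6a2 and from −2.04 to −1.76 for Col6a3. Of the listed genes 0 were called by edgeR, 3 by DESeq2, and 0 to 2 with a library left out.

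The log2 FPKM ratios were 2.08 (Col6a1 to Col6a2), 7.84 (Col6a1 to Col6a3) and 5.75 (Col6a2 to Col6a3) in PEEK alone libraries and 2.201, 9.09 and 6.89 in supernatant libraries, where an exact permutation test cannot go below 0.25. With a library left out they ran from 2.13 to 2.19, from 8.21 to 8.61 and from 6.08 to 6.47, where 5 libraries allow no p below 0.0625. By transcript length they were 1.16, 8.31 and 7.15. Library scaling cancels in them. Replicate numbers were not treated as pairs, since over all tested genes libraries of one number did not deviate together. The correlations were −0.03, −0.01 and 0.02, and 0 of 6 libraries correlated best with its own number. For Col6a1 and Col6a2, however, replicate 1 was the highest library in both groups. With the replicate block, the log2 fold change was −0.65 (SE 0.17, edgeR adjusted p = 0.588) for Col6a1. For Col6a2 it was −0.77 (SE 0.12, edgeR adjusted p = 0.412).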
